A study of Mus musculus with 12 samples.

Results

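Integrins, homing receptors, selectin ligands, cadherins and the adaptors that anchor them were examined in long-term hematopoietic stem cells (LT-HSCs) from young and aged mice. The group holds 37 genes out of 22548 with a value, chosen by gene symbol alone and all present in the data: 17 integrin alpha chains, 7 integrin beta chains and 13 other adhesion genes. The 12 samples came from C57BL/6 mice and held sorted bone marrow cells that carried c-kit and sca1 and lacked CD34, Flk2 and lineage markers, pooled to at least 200 cells per sample. They comprised 4 samples of young HSCs (2 to 4 months of age), 5 of aged HSCs (20 to 26 months) and 3 of aged HSCs treated with CASIN, a small molecule that inhibits the small GTPase Cdc42. All cells spent 16 h in medium with serum at 3% O2 and 5% CO2, and the treated cells received 5 µM CASIN in that time. Young cells were not treated with CASIN, so the values hold no account of the compound in young HSCs.

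Integrins are receptors built from 1 alpha and 1 beta chain, and a chain reaches the cell surface only in such a pair. The alpha chain largely sets the ligand, which may be a matrix protein such as collagen, laminin or fibronectin, or a counter-receptor such as Vcam1 on another cell. Talin and kindlin bind the beta chain from inside the cell and switch the receptor to its active form. In the bone marrow, HSCs are held near vessels and stromal cells by alpha 4 beta 1 integrin on Vcam1 and by the receptor Cxcr4 on its ligand Cxcl12, while selectin ligands, Cd44 and cadherins add further contacts. Cdc42, the target of CASIN, acts on the actin cytoskeleton to which these receptors are tied.

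The values are log2 expression levels that the authors normalized to a common distribution, and without counts the sequencing depth of the libraries is not known. In every sample a large block of genes shares a single lowest value, and a gene above it was called detected. That lowest value lay between 0.43 and 0.67 in young, 0.02 and 0.23 in aged and 0 and 0.63 in CASIN-treated samples. Among all genes 27.0 to 42.9% were detected in young samples, 50.8 to 78.1% in aged samples, and 30.4%, 88.8% and 32.3% in CASIN replicates 1, 2 and 3. Of genes that nearly every blood cell uses, Gapdh and Actb were detected in 12 of 12 samples. Others were at the lowest value in many samples: Hprt, a housekeeping enzyme, was detected in 2 of 12, B2m, the light chain of class I MHC, in 8 and Ptprc, which encodes CD45, in 9 (genes chosen after their values were seen). A gene at the lowest value is therefore only listed there, and each sample's value is given for such genes. Of 8 HSC marker genes, 1 to 5 were detected in young, 4 to 8 in aged and 3 to 8 in CASIN-treated samples, with summed levels of 12.6 to 27.7, 8.89 to 22.7 and 21.7 to 26.1. Here and below, summed levels include undetected genes at the lowest value of the sample, which lies higher in young than in aged samples. Kit and Ly6a, which encode the sorted proteins c-kit and sca1, were at the lowest value in all 4 young samples, and each was detected in 3 of 5 aged and 1 of 3 CASIN-treated samples. The transcription factor gene Hlf was detected in 11 of 12 samples. Of 3 progenitor genes (Flt3, Cd34 and Cd48), 0 to 1 were detected in young, 1 to 2 in aged and 0 to 2 in CASIN-treated samples, with summed levels of 1.29 to 7.42, 2.34 to 7.32 and 1.73 to 4.31. Flt3, which encodes the Flk2 protein that the sort selected against, was detected in 7 samples (1 young, 5 aged, 1 CASIN-treated), Cd34 in 6 (1, 4 and 1) and Cd48 in 0.

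Adhesion genes were detected more often in aged than in young samples, as were genes in general. Young samples had 9, 24, 19 and 12 of the 37 genes above the lowest value (replicates 2 to 5), and aged samples had 35, 33, 25, 30 and 27 (replicates 0 and 2 to 5). These ranges did not overlap. The 3 CASIN-treated samples stood far apart from each other, with 11, 37 and 12. Replicate 2 of this group had the most genes detected of all 12 samples, and 21 of the 37 genes were detected there and in neither of the other 2. That is 56.8% of the adhesion genes, against 45.2% of all genes with the same pattern. As a percentage, 24.3 to 64.9% of the adhesion genes were detected in young and 67.6 to 94.6% in aged samples. With only values more than 1 log2 unit above the lowest counted, young samples had 9 to 24 genes and aged samples 21 to 30, and the ranges overlapped. In these bulk samples, fewer expressing cells, less RNA per cell and lower detection of genes in a library cannot be told apart.

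**Figure D1:**
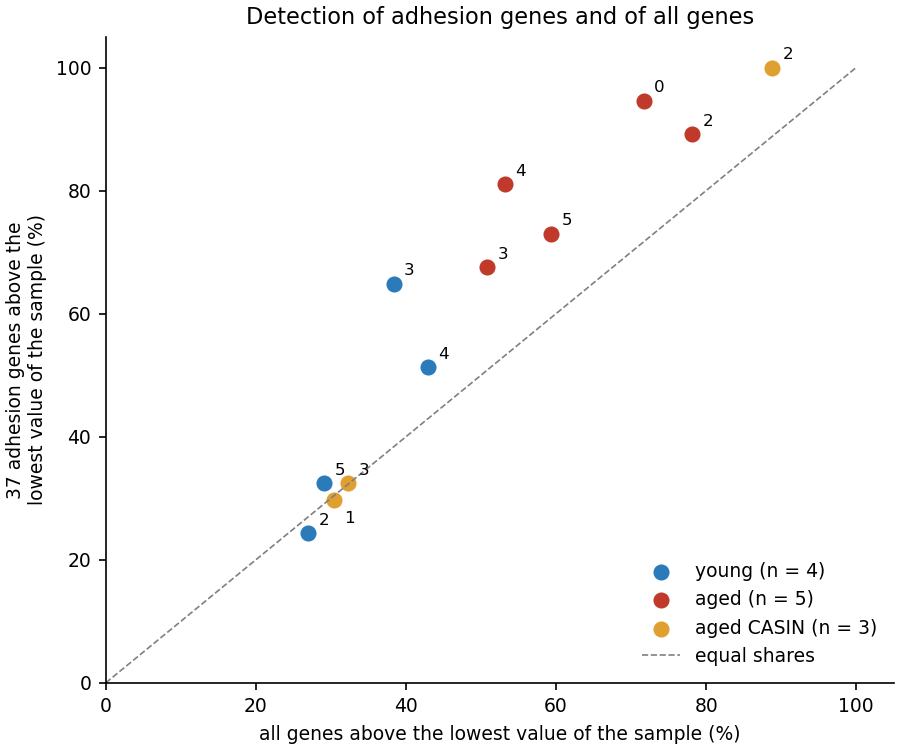
Percentage of the 37 adhesion genes above the lowest value of the sample (vertical axis) against the same percentage for all 22548 genes (horizontal axis), 1 point per sample with its replicate number beside it, and a dashed line where both are equal. Young samples lie between 24.3 and 64.9% of the adhesion genes, aged samples between 67.6 and 94.6%, and CASIN replicate 2 at 100%, while CASIN replicates 1 and 3 lie among the young samples.

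The adhesion genes fell into a small set present in every sample and a large set present in some. Itga4, Itgam, Itgb6, Itga11, Itga9 and Cdh2 were detected in 12 of 12 samples, which is 16.2% of the 37 genes, against 9.504% of all genes. The other 31 were each missing from at least 2 samples. No adhesion gene was detected in a young sample and in no aged sample, against 1.41% of all genes with that pattern. In the other direction, 6 genes were detected in at least 1 aged and in no young sample, namely the alpha chains Itga8 and Itgax, the beta chains Itgb1, Itgb2 and Itgb8, and the kindlin gene Fermt3. That is 16.2% of the adhesion genes, against 29.9% of all genes with the same pattern. Of these 6, Itgax and Itgb2 were detected in all 5 aged samples, which is 5.41% of the adhesion genes, against 1.48% of all genes.

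**Figure D2:**
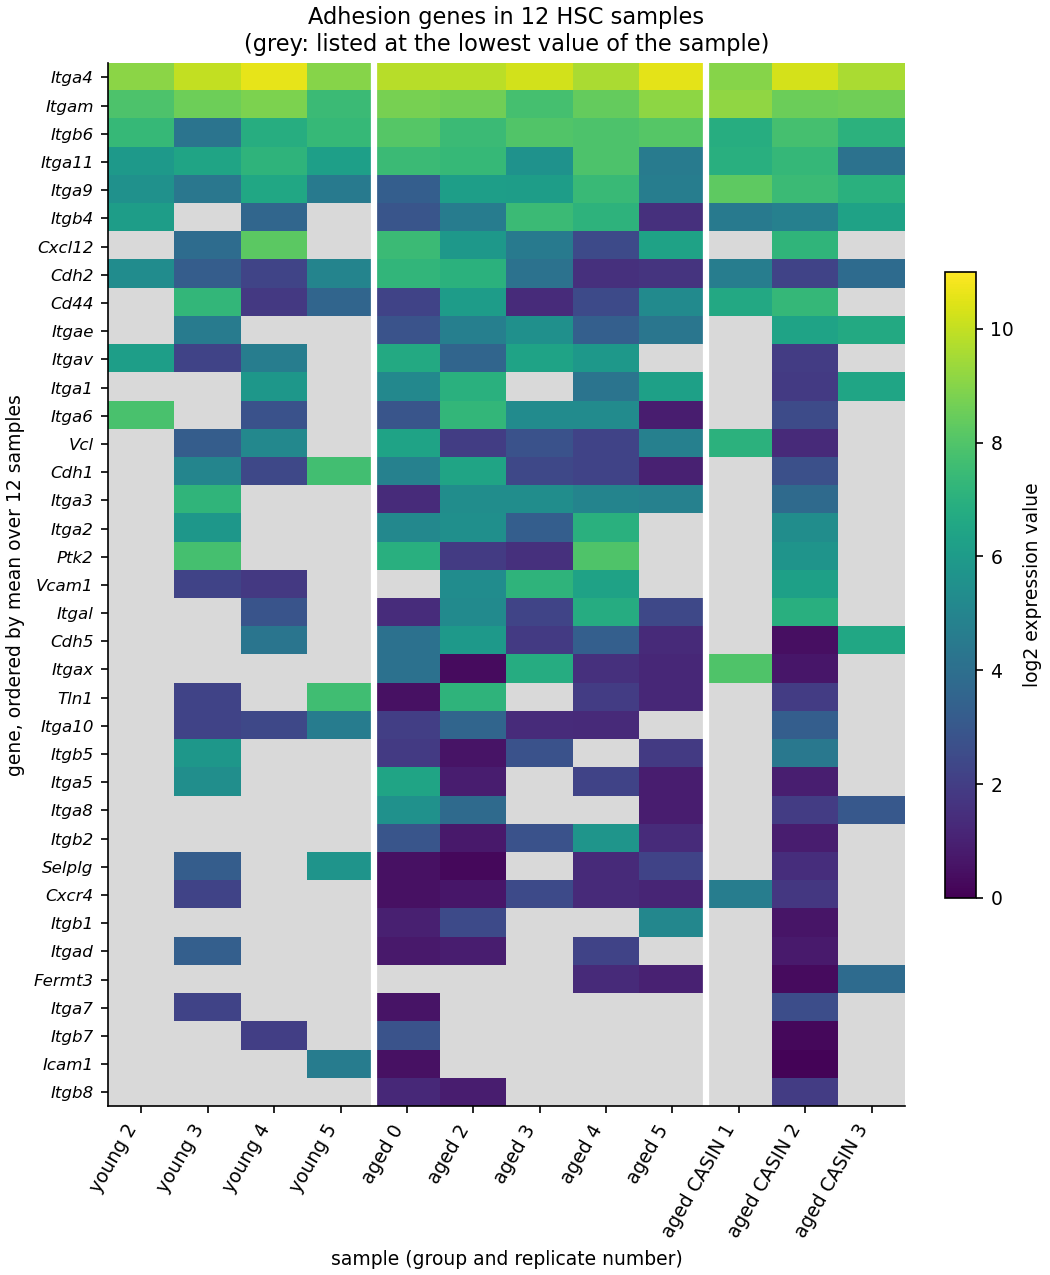
Log2 expression value (colour scale) of the 37 adhesion genes (rows, ordered by mean over 12 samples) in each sample (columns, white lines between the groups), with grey where a gene sits at its sample's lowest value. Itga4, Itgam, Itgb6, Itga11, Itga9 and Cdh2 are coloured throughout, while most other rows are largely grey in young samples and in CASIN replicates 1 and 3.

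Both alpha chains that bind Vcam1 were in the set present everywhere. Itga4 (chr2:79255426-79333123, plus strand, mm10), the alpha chain of the HSC homing receptor VLA-4, had the highest mean of all 37 genes, 9.80 ± 0.57 (SD, n = 12), which placed it 90th among all genes. It was 9.09, 9.98, 10.61 and 8.99 in young, 9.81, 9.87, 10.26, 9.60 and 10.53 in aged and 9.003, 10.31 and 9.60 in CASIN-treated samples. The 3 groups overlapped, and no sample was low. Among the 2143 genes detected in all 12 samples, 7.05% had a smaller SD than Itga4. Here and below, such shares are taken over genes of all levels, not over genes of like level. Itga9 (chr9:118606690-118901003, plus strand), the alpha 9 chain, which shares Vcam1 and further ligands with alpha 4, had a mean of 5.95 ± 1.51 (SD, n = 12). Its values are given with the comparison of CASIN-treated and aged HSCs, where it passed the unadjusted test. Levels of different genes can be ordered only with care here, since the Cufflinks step scales by transcript length but the step from there to the deposited values is not described.

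Among the leukocyte alpha chains, Itgam was steady while its neighbours were not. Itgam (chr7:128062640-128118491, plus strand) encodes the alpha M chain of Mac-1, best known from myeloid cells. It was 7.92, 8.56, 8.82 and 7.48 in young, 8.74, 8.62, 7.76, 8.40 and 9.15 in aged and 9.17, 8.53 and 8.59 in CASIN-treated samples. The mean was 8.48 ± 0.52 (SD, n = 12), 221st among all genes, and 5.93% of the genes detected in all samples had a smaller SD. Its groups overlapped. Itgax, the alpha X chain of dendritic and other myeloid cells, starts 11.1 kb downstream on the same strand and was detected in 7 samples, with 0 of 4 young samples among them. Itgad, a further 3.72 kb on, was detected in 5 samples and reached at most 3.35.

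Itgal, the alpha chain of LFA-1, lies in the same region of chromosome 7. It was detected in 1 of 4 young samples, at 2.85, with the other young samples at the lowest value. In aged samples it was 1.38, 5.28, 2.25, 6.79 and 2.40, and among CASIN-treated samples it was at 6.92 in replicate 2 and at the lowest value in the other 2. All 5 aged samples thus held Itgal, with a spread of several log2 units. Itgae, the alpha E chain of mucosal T cells, was detected in 1 young, 5 aged and 2 CASIN-treated samples. Of 6 granulocyte and monocyte marker genes, 1 to 2 were detected in young, 2 to 4 in aged and 1 to 5 in CASIN-treated samples, with summed levels of 5.27 to 10.9, 4.85 to 13.4 and 3.75 to 7.50. Mpo and Elane were at the lowest value in all young samples, S100a9 in all aged samples and Lyz2 in all CASIN-treated samples. Cells with CD11b, the protein of Itgam, or Gr-1 on their surface were among those removed by lineage depletion before the sort. The part of such cells in the leukocyte integrin values was not tested.

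Of the alpha chains that bind collagen, Itga11 was present everywhere. Itga11 (chr9:62677826-62783982, plus strand) encodes a chain best known from fibroblasts and mesenchymal cells. Its values were 5.96, 6.43, 7.15 and 6.19 in young, 7.49, 7.36, 5.59, 7.92 and 4.56 in aged and 6.93, 7.32 and 4.15 in CASIN-treated samples. Aged and CASIN-treated samples enclosed the range of young samples. Itga1, Itga2 and Itga10 were detected in 7, 6 and 8 samples. Of 6 mesenchymal stroma marker genes, one of which is Cxcl12 itself, 1 to 5 were detected in young, 4 to 6 in aged and 1 to 6 in CASIN-treated samples, with summed levels of 9.71 to 27.3, 20.4 to 31.96 and 9.53 to 29.4. Col1a2 was at the lowest value in all young samples, while Col1a1 was detected in 3 young, 3 aged and 1 CASIN-treated samples. Young minus aged, the difference was 3.12 ± 1.45 (SE) for Col1a1 and -4.12 ± 0.98 (SE) for the leptin receptor gene Lepr, a marker of bone marrow stroma detected in 3 young, 5 aged and 3 CASIN-treated samples. Col1a2 and Cxcl12 differed in the direction of Lepr, by -2.98 ± 1.11 and -1.98 ± 1.88 (SE, young minus aged). Kitl was detected in 1 young, 5 aged and 2 CASIN-treated samples, and Pdgfrb in 3, 4 and 1. The markers thus did not all differ in the same direction, and the part of stromal RNA in the values was not tested.

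Alpha chains for laminin and for the RGD motif of fibronectin and vitronectin were each missing from some samples. Itga6, the laminin receptor chain that is also used as a stem cell marker, was at 7.86 and 2.78 in young replicates 2 and 4 and at the lowest value in the other 2. It was 2.92, 7.28, 5.32, 5.30 and 0.89 in aged samples and 2.50 in CASIN replicate 2 alone. Itga5, the alpha chain of the fibronectin receptor, was at 5.43 in young replicate 3 and at the lowest value in the other 3 young samples. Its aged values were 6.43, 0.89, 0.23, 2.23 and 0.89, of which that in replicate 3 is the lowest value of the sample, and it was 0.93 in CASIN replicate 2 alone. Both chains ranged from high to the lowest value within a group. Itgav, which pairs with beta chains 1, 3, 5, 6 and 8, was detected in 3 young, 4 aged and 1 CASIN-treated samples. Itga3, Itga7 and Itga8 were detected in 7, 3 and 5 samples, with no young sample among those of Itga8.

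Beta chains were detected in 3 to 12 samples, as were alpha chains. Itgb6 (chr2:60598292-60722643, minus strand), which pairs with alpha V and is best known from epithelia, was detected in all 12 samples at a mean of 7.26 ± 1.06 (SD, n = 12). Itgb1 (chr8:128685654-128733200, plus strand) encodes the beta 1 chain, the partner of most alpha chains measured here. It was at the lowest value in all 4 young samples. In aged samples it was 0.98, 2.49 and 5.09 in replicates 0, 2 and 5 and at the lowest value in replicates 3 and 4, and among CASIN-treated samples it was above the lowest value in replicate 2 alone, at 0.63. Itgb1 is used by almost every cell type, and its listing at the lowest value in 8 samples stands beside that of Hprt. Itgb4 was detected in 10 samples, Itgb5 in 6, and Itgb7 and Itgb8 in 3 each.

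**Figure D3:**
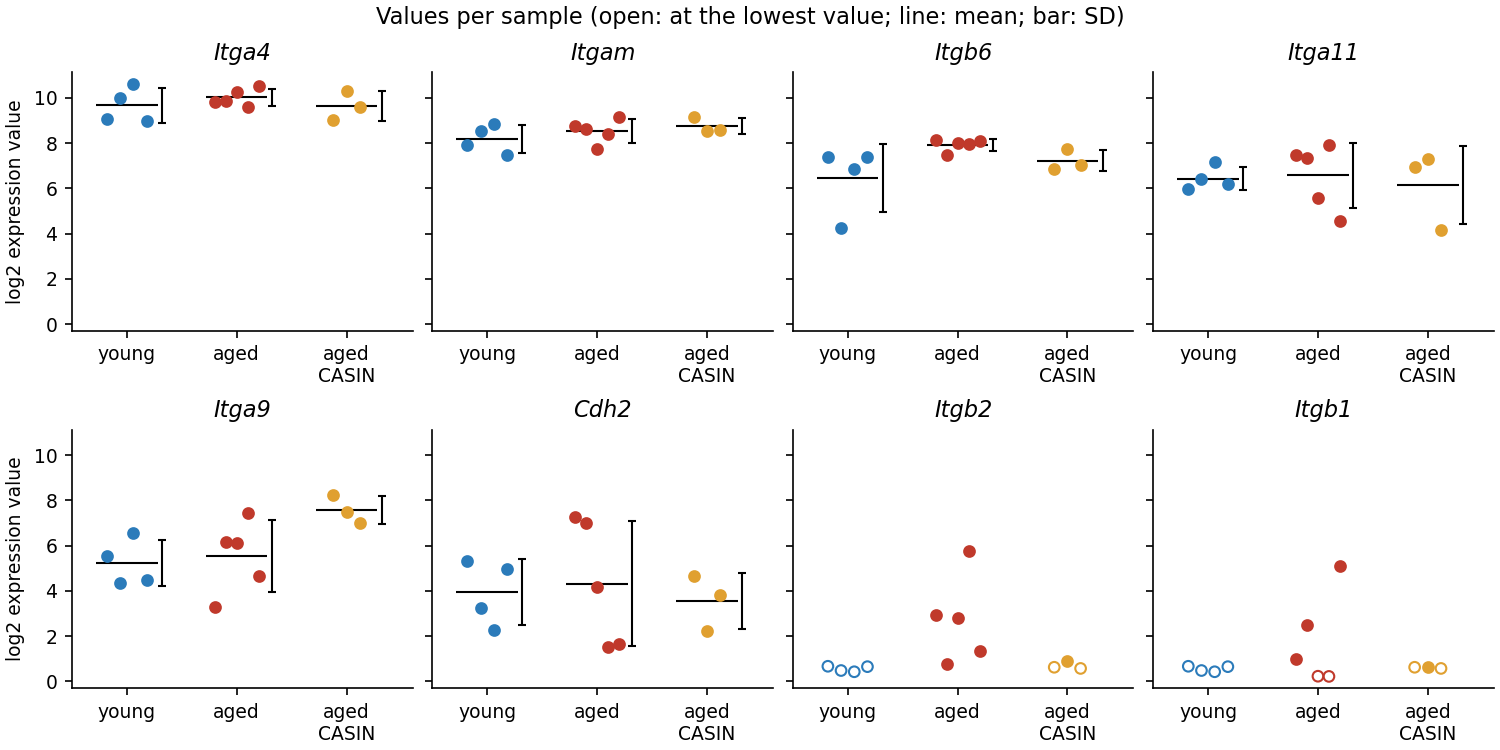
Log2 expression value of 8 integrin and cadherin genes in each young (blue, n = 4), aged (red, n = 5) and CASIN-treated (yellow, n = 3) sample. Open circles mark the lowest value of the sample, and for genes detected in all 12 samples the black line is the group mean and the bar beside it the SD. Itga4 and Itgam vary least, Itgb6 is lower in all 4 young than in all 5 aged samples, Itga9 has its highest mean in CASIN-treated samples, and Itgb2 and Itgb1 lie at the lowest value in all young samples.

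Because an integrin needs both chains, the samples in which both were detected were counted. VLA-4 had its alpha chain Itga4 in 12 samples but Itgb1 in 4 and the alternative partner Itgb7 in 3. Itga9 and Itga11, whose partner is also Itgb1, were likewise detected without it in 8 samples each. Mac-1 had Itgam in 12 samples and Itgb2 in 6, which were 5 of 5 aged samples, CASIN replicate 2 and no young sample. Itgal and Itgb2 of LFA-1 were detected together in the same 6 samples. Itga6 and Itgb4, which form the receptor alpha 6 beta 4, were detected together in 8 samples and Itgb4 alone in 2. Itgav was detected in 8 samples and its partner Itgb6 in all 12. For ligands and their receptors, Cxcr4 and Cxcl12 were both detected in 7 samples and Itga4 and Vcam1 in 6. These counts carry the differences in detection between libraries described above, and they are counts of transcripts, not of receptors.

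Of the homing axis, Cxcr4 and Cxcl12 were each detected in 8 samples. Cxcr4, which holds HSCs in the marrow through Cxcl12, was at 2.22 in young replicate 3 and at the lowest value in the other 3 young samples. It was 0.48, 0.65, 2.48, 1.30 and 1.16 in aged samples, and 4.64 and 1.77 in CASIN replicates 1 and 2. The group ranges overlapped, with the single highest value in a CASIN-treated sample. Cxcl12, made mainly by stromal cells, was 3.88 and 8.24 in young replicates 3 and 4, 7.48, 5.87, 4.54, 2.46 and 6.34 in aged samples and 7.20 in CASIN replicate 2, and it was at the lowest value in the 4 remaining samples.

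Cd44, a receptor for hyaluronan that also carries selectin ligands, was detected in 3 young, 5 aged and 2 CASIN-treated samples. It was 7.30, 1.84 and 3.59 in young replicates 3, 4 and 5, 2.21, 6.10, 1.36, 2.46 and 5.28 in aged samples and 6.65 and 7.34 in CASIN replicates 1 and 2. Each group held both a sample above 6 and a sample below 2. Selplg, which encodes the P-selectin ligand PSGL-1, was at 3.24 and 5.67 in young replicates 3 and 5, at 0.48, 0.22, 0.23, 1.30 and 2.21 in aged samples, with 0.23 in replicate 3 being the lowest value of that sample, and at 1.46 in CASIN replicate 2. Its 2 highest values were both in young samples.

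Of the cadherins, which join cells of like type, Cdh2 was the member found in all samples. Cdh2 encodes N-cadherin, discussed as a contact between HSCs and bone-lining cells. It was 5.33, 3.24, 2.26 and 4.96 in young, 7.26, 7.01, 4.16, 1.53 and 1.65 in aged and 4.64, 2.22 and 3.82 in CASIN-treated samples. Its values varied more than those of most genes found everywhere: 89.2% of them had a smaller SD, and the aged group held both its highest and its lowest value. Cdh1, the epithelial E-cadherin, was detected in 9 samples and Cdh5, the vascular VE-cadherin, in 8. Of 5 endothelial marker genes, one of which is Cdh5, 0 to 4 were detected in young, 3 to 5 in aged and 2 to 5 in CASIN-treated samples, with summed levels of 3.27 to 16.13, 6.28 to 19.2 and 7.12 to 16.8. Emcn was at the lowest value in all young samples, and the part of endothelial RNA was not tested.

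Counter-receptors and adaptors completed the group. Vcam1, the ligand of alpha 4 integrins, was 2.22 and 1.84 in young replicates 3 and 4, 5.36, 7.14 and 6.35 in aged replicates 2, 3 and 4 and 6.27 in CASIN replicate 2, and it was at the lowest value in the other 6 samples. It was thus either well above or at the lowest value in aged samples, with nothing between. Icam1, the ligand of LFA-1, was detected in 3 samples. Vcam1 is also made by macrophages: of 5 macrophage marker genes with Vcam1 among them, 0 to 1 were detected in young, 1 to 3 in aged and 0 to 5 in CASIN-treated samples, with summed levels of 3.27 to 4.16, 2.44 to 10.8 and 2.88 to 13.003. The other 4 were at the lowest value in all young samples, C1qb also in all aged samples, and their part was not tested.

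Tln1, the talin that activates integrins, was 2.22 and 7.64 in young replicates 3 and 5, 0.48, 7.16, 1.97 and 1.21 in aged replicates 0, 2, 4 and 5 and 1.97 in CASIN replicate 2. A single sample of each control group stood far above the rest. Fermt3, the kindlin of blood cells, was at the lowest value in all young samples, at 1.30 and 0.995 in aged replicates 4 and 5 and at 0.31 and 3.82 in CASIN replicates 2 and 3. Vcl, which links talin to actin, was detected in 9 samples and Ptk2, the focal adhesion kinase, in 6. Exons of 14 of the 37 genes overlap another annotated gene, 11 of them on the opposite strand, and whether reads were counted by strand is not stated in the sources used here. Among the genes detected in all 12 samples this touches Itga4, whose exons overlap Cerkl on the opposite strand. It also touches Itgam, whose exons overlap Gm49368 on the same strand, where counting by strand would not separate the reads. Cerkl was itself detected in 3 samples and reached at most 3.11.

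The first comparison asked how aged HSCs differ from young HSCs in adhesion genes. Itgb2 and Itgb6 were lower in young than in aged HSCs at an unadjusted p under 0.05, and no adhesion gene passed after adjustment over all genes. In limma, 2 of 37 genes (5.41%) had an unadjusted p under 0.05, against 5.33% of all genes, so the share of adhesion genes was that of the background. Both were lower in young, a direction that 3.2% of all genes took at this threshold. No adhesion gene had an unadjusted p under 0.01 (background 1.34%) or an adjusted p under 0.05 (background 0.0177%). Itgb2 and Itgb6 were also the 2 genes whose young values all lay below the aged values, a pattern seen in 1.61% of all genes. Non-overlap in the other direction is not counted here, because the lowest value of every young sample lies above that of every aged sample, so that an undetected gene can appear higher in young.

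Itgb2 (chr10:77530252-77565708, plus strand) encodes the beta 2 chain, shared by LFA-1, Mac-1 and the other leukocyte integrins. It was at the lowest value in all 4 young samples and at 2.92, 0.75, 2.79, 5.74 and 1.36 in aged samples. The difference on the log2 scale was -2.15 ± 0.84 (SE, young minus aged), and the adjusted limma p was 0.764. The exact two-sided permutation test over the 9 samples gave p = 0.0556, so the call did not hold under that test. It was also lost without young replicate 3 or 4 and under limma-trend, and without aged replicate 4 the difference was -1.40. The aged samples covered a wide range, and the smallest of them, 0.75, lay close to the young values. In CASIN-treated samples Itgb2 was above the lowest value in replicate 2 alone, at 0.89. The difference from aged HSCs was -2.02 ± 0.91 (SE), with a 95% interval from -4.04 to 0.0034 that just reached 0. Of the 6 granulocyte and monocyte markers, 2 to 4 were detected in aged and 1 to 2 in young samples, where fewer genes were detected in general. Mpo (0 young and 4 aged samples), Elane (0 and 3), S100a8 (1 and 3) and Csf1r (2 and 4) were detected in more aged samples. Lyz2 (2 and 1) and S100a9 (1 and 0) were not. These 2 genes differed by 1.75 and 1.44 (young minus aged), the direction opposite to that of Itgb2. Most of their aged values were the lowest value, which lies higher in young samples. The part of such cells in the Itgb2 values was not tested.

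Itgb6 was 7.39, 4.24, 6.86 and 7.37 in young and 8.12, 7.48, 7.998, 7.95 and 8.11 in aged samples. The aged values were close together, and the highest young value fell just below the lowest aged one. The difference was -1.47 ± 0.63 (SE, young minus aged), with an adjusted limma p of 0.764. The exact two-sided permutation test gave p = 0.00794, the lowest value possible with groups of 4 and 5. Without young replicate 3 the difference was -0.73, and it no longer passed the unadjusted limma threshold. The call was also lost without aged replicate 0, 3, 4 or 5, where the difference stayed between -1.46 and -1.42. Centring samples on genes detected in all samples likewise removed the limma call for Itgb6, with a difference of -1.01. In CASIN-treated samples Itgb6 was 6.86, 7.75 and 7.05, a range that overlapped both other groups. They were lower than aged samples by the exact two-sided permutation test (-0.71 ± 0.68 SE, p = 0.0357) but not in limma.

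The remaining 35 genes did not pass, with differences between -2.65 for Itga1 and 1.61 for Selplg. Errors were large: the median SE over the 37 genes was 1.32 log2 units, and the 95% interval of Vcam1, for example, ran from -6.32 to 1.38. Intervals were narrower for the steady genes, from -1.36 to 0.66 for Itga4 and from -1.27 to 0.59 for Itgam. In sign, 26 of 37 differences were below zero (lower in young), with a median of -0.37, against a median of -0.02 over all genes. The sign of this median depended on the scaling. When samples were centred on genes detected in all samples, the median of all genes moved to 0.44 and that of the adhesion genes to 0.08. With one common lowest value for all samples these medians were -0.36 and -0.73.

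**Figure D4:**
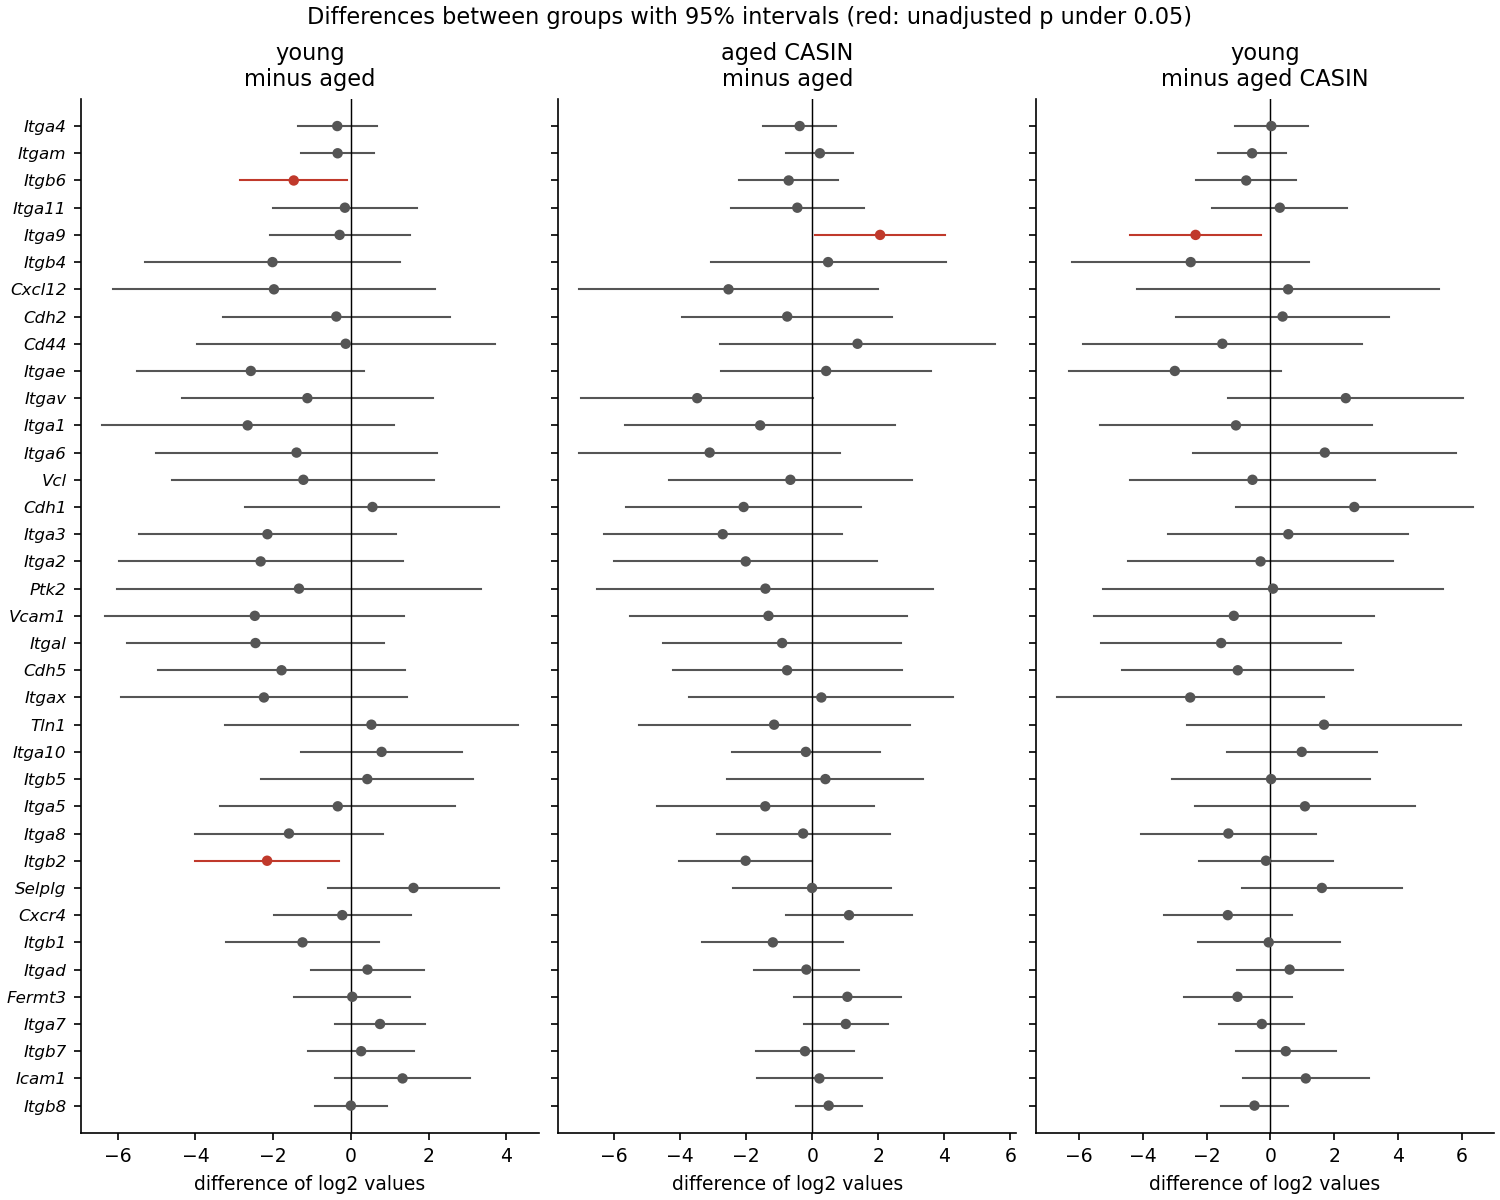
Difference of log2 values with its 95% interval (horizontal axis) for the 37 adhesion genes (rows, ordered by mean level) in young minus aged, CASIN-treated minus aged and young minus CASIN-treated HSCs. Red marks an unadjusted limma p under 0.05, which was reached by Itgb2 and Itgb6 in the first panel and by Itga9 in the other 2, and most other intervals span several log2 units on both sides of 0.

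The second comparison asked how adhesion genes differ in aged HSCs after CASIN, and it shares the 5 aged samples with the first. Itga9 was higher in CASIN-treated than in aged HSCs at an unadjusted p under 0.05, and again no adhesion gene passed after adjustment. Of the 37 genes 1 (2.70%) had an unadjusted p under 0.05, against 4.4% of all genes, or 2.48% in this direction. None had an unadjusted p under 0.01 (background 0.927%) or an adjusted p under 0.05 (background 0.0222%). For none of the 37 genes were the 2 groups free of overlap, against 4.82% of all genes.

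Itga9 was 3.29, 6.15, 6.11, 7.44 and 4.65 in aged and 8.25, 7.51 and 7.002 in CASIN-treated samples. All 3 treated samples lay above 4 of the 5 aged samples, and aged replicate 4 lay between them. The difference was 2.06 ± 0.89 (SE, CASIN minus aged) with an adjusted limma p of 0.948, and the exact two-sided permutation test gave p = 0.0893. Without aged replicate 0 it was 1.498 and without CASIN replicate 1 it was 1.72, and neither passed the unadjusted limma threshold. The call was also lost without young replicate 2, aged replicate 5 or CASIN replicate 2, under limma-trend and with the 2 groups alone. In young samples Itga9 was 5.55, 4.37, 6.54 and 4.50, within the range of aged samples.

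Among genes that missed the threshold, Itgav was nearest after Itgb2, with a difference of -3.48 ± 1.60 (SE, CASIN minus aged) and a 95% interval from -7.01 to 0.039. Itgav was 6.70, 3.57, 6.40 and 5.87 in aged replicates 0, 2, 3 and 4, at the lowest value in aged replicate 5 and CASIN replicates 1 and 3, and at 1.97 in CASIN replicate 2. The counts in this comparison turned on that sample. Without CASIN replicate 2, the CASIN-treated and aged values of 8 adhesion genes did not overlap. Among them Itgb6 was lower in CASIN-treated samples, at values above the lowest. Cxcl12, Itga3, Itga6, Itgal, Itgb2 and Cdh1 were also lower and Icam1 was higher, but all of these were at the lowest value in both remaining treated samples. Of all genes 16.5% were then free of overlap. The median difference over the 37 genes was -0.45, against -0.04 over all genes, and it moved to -0.10 against 0.31 after centring.

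The third comparison set young against CASIN-treated aged HSCs, and it shares samples with both others. Itga9 was the only adhesion gene with an unadjusted p under 0.05, 1 of 37 against 4.29% of all genes. Its difference was -2.34 ± 0.93 (SE, young minus CASIN), with an adjusted limma p of 0.9995, a direction that 2.9% of all genes took at this threshold. All 4 young values lay below all 3 CASIN-treated values, as for 1.4% of all genes, and the exact two-sided permutation test gave p = 0.0571. The limma call was lost without young replicate 3 or 5 or CASIN replicate 1 or 2 and after centring. None of the 37 had an unadjusted p under 0.01 (background 1.07%) or an adjusted p under 0.05 (background 0%). Itgae came next, at -2.99 ± 1.51 (SE) with a 95% interval from -6.32 to 0.33. The median over the 37 genes was -0.14, against 0.09 over all genes, and after centring it was -0.03 against 0.19. Without CASIN replicate 2 it was 0.36 against -0.04, with a detection covariate 0.17 against -0.00086, and without young replicate 3 it was -0.60 against 0.09.

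Beyond the 37 genes, 78 further genes of adhesion were examined in 6 lists, which cover integrin activation and focal adhesion (28), matrix ligands (15), other cell-cell adhesion molecules (14), selectins and the synthesis of their ligands (11), catenins and other cadherins (5) and Cxcl12 signalling (5). None had an adjusted p under 0.05 in any comparison. At an unadjusted p under 0.05, young against aged HSCs gave 4 of 78 genes (5.13%, against 5.33% of all genes), 2 in each direction. Parva, an actin-binding partner of integrin-linked kinase, was lower in young, with a difference of -4.12 ± 1.09 (SE, adjusted limma p = 0.536, exact permutation test, p = 0.0238). It was detected in 1 of 4 young samples, at 2.54, and at 4.86, 7.59, 6.32, 1.30 and 5.97 in aged samples. In CASIN-treated samples Parva was at 1.52 in replicate 2 alone, and was lower than in aged samples by -4.30 ± 1.18 (SE, adjusted limma p = 0.876, exact permutation test, p = 0.0536). Actn4, an actin crosslinker, was higher in young than in aged HSCs, with a difference of 3.33 ± 1.11 (SE, exact permutation test, p = 0.0476). It was 4.11, 6.63 and 6.23 in young replicates 2, 4 and 5, 2.48, 0.995 and 1.30 in aged replicates 0, 2 and 4 and 0.46 in CASIN replicate 2. In the other samples Actn4 was at the lowest value. Col1a2, a chain of type I collagen, was at the lowest value in all young samples and differed by -2.98 ± 1.11 (SE, exact permutation test, p = 0.0476). It was 2.83, 3.35, 4.95 and 6.36 in aged replicates 0, 2, 4 and 5 and 3.57 in CASIN replicate 2, and at the lowest value in the other samples. Col1a1, the other chain, differed the other way by 3.12 ± 1.45 (SE, exact permutation test, p = 0.111). It was 6.55, 5.89 and 6.44 in young replicates 3, 4 and 5 and at the lowest value in replicate 2, 5.97, 0.93 and 1.54 in aged replicates 0, 2 and 3 and at the lowest value in the other 2, and 1.68 in CASIN replicate 2 alone.

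CASIN-treated against aged HSCs gave 8 of 78 genes (10.3%, against 4.4% of all genes), of which 4 were higher and 4 lower. Fut7, which makes the fucose group of selectin ligands, was detected in CASIN replicates 2 and 3, at 3.85 and 7.64, and in 1 of 9 control samples, at 0.48. Its difference from aged HSCs was 3.80 ± 1.15 (SE, adjusted limma p = 0.948, exact permutation test, p = 0.0179). Crk, an adaptor of focal adhesion signalling, was 7.24, 7.82 and 7.16 in CASIN-treated samples and 2.05, 1.57, 5.92, 3.03 and 1.39 in aged samples. All treated samples lay above all aged samples, with a difference of 4.62 ± 1.42 (SE, adjusted limma p = 0.948, exact permutation test, p = 0.0179, the lowest value possible with groups of 3 and 5). In young samples Crk was 7.27, 4.52 and 5.92 in replicates 2, 3 and 4 and at the lowest value in replicate 5. Young against CASIN-treated HSCs gave 6 of 78 genes (7.69%, against 4.29% of all genes), with Actn4, B4galt1, Col1a1, Rac1 and Spn higher and Fut7 lower in young. The lowest p belonged to B4galt1, a galactosyltransferase, at 4.12 ± 1.20 (SE, adjusted limma p = 0.849, exact permutation test, p = 0.0571). The next lowest were those of Rac1, a regulator of the actin cytoskeleton, at 4.75 ± 1.52 (SE, exact permutation test, p = 0.0571), and Spn, the leukocyte sialomucin CD43, at 4.44 ± 1.42 (SE, exact permutation test, p = 0.0286). B4galt1 was 6.62, 5.76, 2.40 and 6.02 in young samples, 2.03 in CASIN replicate 2 and at the lowest value in CASIN replicates 1 and 3. Rac1 was 7.27, 2.85, 6.71 and 4.15 in young samples, 0.29 in CASIN replicate 2 and at the lowest value in CASIN replicates 1 and 3. Spn was 6.08, 8.76, 6.63 and 5.09 in young samples, 3.34 and 2.69 in CASIN replicates 1 and 2 and at the lowest value in CASIN replicate 3.

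A feature that the choice of genes did not use was their length. The 6 genes present in all samples spanned 55.9 to 294 kb from first to last exon, with a median of 115 kb, against a median of 38.9 kb for the other 31. Itga9 is the longest of the 37, and Cxcr4, at 4.095 kb, is the shortest. Across the 37 genes the mean level and the length of the gene had a Spearman correlation of 0.48. Across 21316 genes matched to the annotation it was 0.42, and for the exonic length the values were 0.41 and 0.56. Within single samples the Spearman correlation with the length of the gene ran from 0.20 in CASIN replicate 1 to 0.37 in CASIN replicate 2 over all genes. These correlations are across genes, which share their libraries and are not independent replicates, and long genes with low values such as Ptk2 and Itga8 were found as well.

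**Figure D5:**
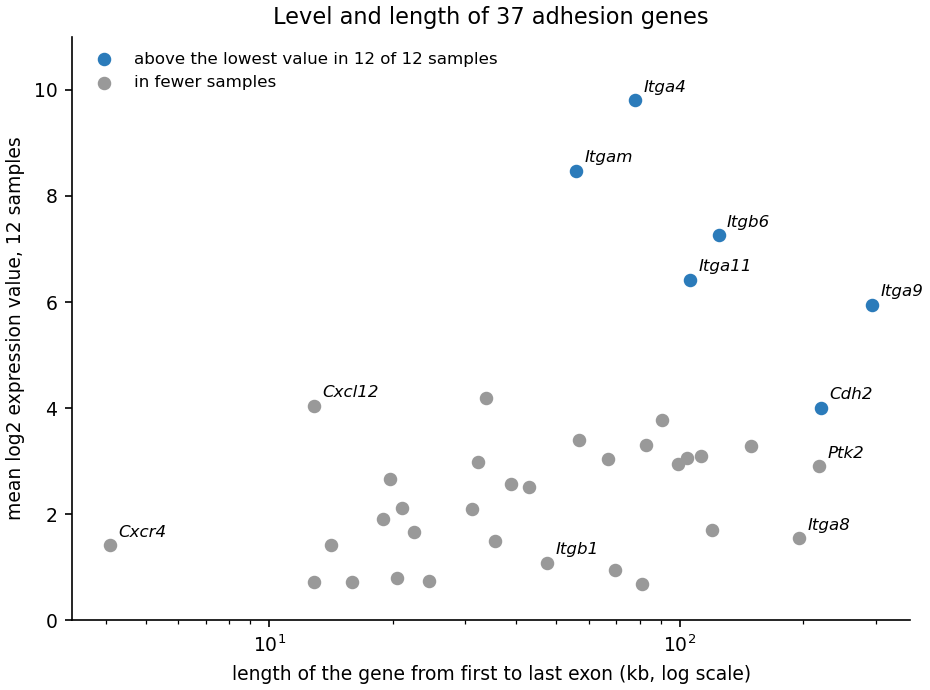
Mean log2 expression value over 12 samples (vertical axis) against the length of the gene from first to last exon in kb (log scale) for the 37 adhesion genes, with blue for the 6 genes detected in all samples. The blue points lie at 55.9 kb and above, while Ptk2 and Itga8 are long genes with mean values under 3.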

How the data were processed

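The authors trimmed paired-end reads (NuGEN single-cell RNA-seq kit), aligned them to mm10 with TopHat and processed them with Cufflinks. They deposited log2 values for 22548 genes, normalized to a nearly common distribution, so differences in total RNA cannot be seen. The step between is not described, and a difference that involves genes at the lowest value depends on that value.

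The log2 values were used as deposited. limma 3.58.1 (R 4.3.3) was run on all genes in one fit of 3 groups, unfiltered and two-sided, with Benjamini-Hochberg adjustment over all genes, and was tested on simulated data. An exact two-sided permutation test of single genes was added after the data were seen. Further steps used Python 3.11.15 with scipy 1.17.1 and matplotlib 3.10.9. Positions and overlaps are from GENCODE M21 (mm10), in which all 37 symbols were found.

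The genes, roles, pathway lists and markers were chosen with earlier results of these data known. Calls are at an unadjusted limma p under 0.05 unless stated. Full values are given for genes detected in all samples, genes with an unadjusted p under 0.05, 13 genes picked for their roles, and the 3 lowest p of the pathway lists per comparison. Alternatives were other lowest values, centring, filters, pseudocounts, weights, variance models, covariates, a replicate block and leaving out each sample.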

Additional observations from a re-analysis of the deposited data

Results flagged for a closer look

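Dixon's test for a single extreme sample was applied to 36 groups of values (young and aged samples of the fully described genes) and marked 6. Chance alone marks about 1 in 20 groups of normally spread values. Many of these groups instead hold samples at nearly equal lowest values, where a single detected sample can be marked through that alone. The number marked can therefore not be set against that rate. In young HSCs, Itga5 in replicate 3 (5.43), Itgal in replicate 4 (2.85) and Cxcr4 in replicate 3 (2.22) were each the only young sample above the lowest value. Itgb6 was low in young replicate 3 (4.24), and in aged HSCs it was low in replicate 2 (7.48). Tln1 stood far above the other aged samples in replicate 2 (7.16).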

How the results depend on the processing

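None of the 37 genes reached an adjusted p under 0.05 in limma under any setting tried, and the lowest adjusted p was 0.486, 0.679 and 0.376 in the 3 comparisons. Counts at an unadjusted p under 0.05 moved as follows, with the share of all genes called under the same setting in brackets. For young against aged (2 in the main fit, 5.33%), they were 1 with genes detected in at least 3 samples (5.84%), with a pseudocount of 0.1 (7.62%) and with array weights (5.97%). They were 0 among the 15 adhesion genes with a mean of at least 3 (7.84%), 3 with a detection covariate (4.99%), and 1 to 3 with a sample left out (5.04 to 5.67%). For CASIN against aged (1 in the main fit, 4.40%), they were 2 with one common lowest value (4.44%), after centring (5.27%) and with array weights (4.96%). They were 0 with limma-trend (5.34%) and with 2 groups only (3.92%), 3 with a detection covariate (5.04%) and 0 to 3 with a sample left out (4.08 to 7.18%). For young against CASIN (1 in the main fit, 4.29%), they were 0 after centring (4.08%) and with a pseudocount of 0.1 (4.14%), and 0 to 3 with a sample left out (4.06 to 5.82%). Genes without overlap numbered 1 with a mean of at least 3 and 2 to 6 with a sample left out (young against aged, 2). They numbered 2 after centring and 0 to 8 with a sample left out (CASIN against aged, 0), and 3 after centring and 1 to 6 (young against CASIN, 1). With a sample left out, 9.15 to 14.2, 4.82 to 16.5 and 2.96 to 8.999% of all genes did not overlap, in either direction. No share of all genes is given for the filter or for centring, which moves each sample's lowest value by its own amount. Those counts therefore have no background here. Without young replicate 3, young replicate 4 or aged replicate 0 the first count was 4, 6 and 5, with Icam1 and Itga7 higher in young in the last 2 and Itgb7 in the last, and 10.8, 12.02 and 14.2% of all genes in either direction. Without CASIN replicate 3 the second was 4 (7.40% of all genes), and without CASIN replicates 1 and 2 the third was 3 and 6 (7.85 and 8.999%). The median number of adhesion genes detected in aged samples was 25 with only values more than 1 log2 unit above the lowest (30). The pathway count for young against aged was 7 after centring, where 6.42% of all genes passed, and 4 without it, where 5.33% passed. Deviations from the group means had correlations of -0.033 to 0.058 over 8 pairs of samples with the same replicate number. Over 39 pairs with different numbers they were -0.047 to 0.033. The highest, 0.058, was that of aged replicate 2 and CASIN replicate 2. With the replicate number as a block the counts were 2 (Itgae and Itgal), 1 (Itga6) and 2 (Itga9 and Itgae), against 5.20, 3.99 and 4.77% of all genes. Itgb2, Itgb6 and, for CASIN against aged, Itga9 were thus not called there. Of 1146 differences of single genes under alternatives, 1095 kept their side of the threshold and their direction where called, 36 lost it, 15 gained it and 0 were reversed while called. The cause of these moves was not tested. With 3 to 5 samples per group and no depth known, single genes had median SEs of 1.32 to 1.51 log2 units, which limits what could be resolved. By the exact permutation test, an alternative added after the data were seen, 3, 2 and 0 of the 37 genes had a p under 0.05 in the 3 comparisons: Icam1, Itga7 and Itgb6, then Itga7 and Itgb6. Among all genes the shares were 13.1, 5.22 and 1.22%. Icam1 and Itga7 were mostly at the lowest value, which lies higher in young samples.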

Other observations

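Integrin chains outside the list, chosen after their values were seen, were also examined. Itgb3, the beta chain of the platelet fibrinogen receptor and of the alpha V beta 3 vitronectin receptor, was detected in 12 of 12 samples at a mean of 7.30 ± 0.96 (SD, n = 12). It was 6.77, 5.91, 6.97 and 7.63 in young, 8.21, 8.01, 8.83, 8.03 and 7.28 in aged and 6.47, 7.79 and 5.67 in CASIN-treated samples. The aged values were mostly the highest, with young replicate 5 and CASIN replicate 2 above aged replicate 5. In limma the difference was -1.25 ± 0.54 (SE, young minus aged, adjusted p = 0.764, exact permutation test, p = 0.0238) and -1.43 ± 0.58 (SE, CASIN minus aged, adjusted p = 0.948, exact permutation test, p = 0.0357). Itga2b, the platelet partner of Itgb3, was detected in 6 samples, 1 young, 4 aged and 1 CASIN-treated.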
